A study of Mus musculus with 6 samples.

Results

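The 10 genes described here encode parts of the calcium-activated phosphatase and kinase system: the transcription factors Nfatc1, Nfatc2, Nfatc3 and Nfat5, the calcineurin subunits Ppp3ca, Ppp3cb and Ppp3r1, the calcineurin regulator Rcan1, and the calmodulin-dependent kinases Camk1 and Camk2d. They were chosen by gene name, with earlier results of these data known, from the 23398 genes of the deposited expression matrix. All 10 were matched. Dendritic cells grown from mouse bone marrow (BMDC) in DMEM with serum received either vehicle or nanoparticles of calcium hydroxide, Ca(OH)2, for 12 hours. Each of the 2 groups had 3 RNA sequencing libraries. The strain, age and genotype of the mice, the growth factor used and the nanoparticle dose are not given in the sources used here. The labels do not say that the libraries came from separate cultures or animals, so p-values measure the spread between these libraries, which may be technical.

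Calcineurin is a phosphatase made of a catalytic subunit and a regulatory B subunit, and calcium-loaded calmodulin switches it on. It removes phosphates from NFATc proteins, which then enter the nucleus and act on genes together with partners such as AP-1, while kinases such as GSK3, DYRK and casein kinase 1 put the phosphates back. Calmodulin also activates the CaM kinases, which phosphorylate nuclear regulators such as CREB and class IIa histone deacetylases. NFAT5 shares the DNA-binding fold but lacks the calcineurin docking region and is best known for the response to high salt. In myeloid cells the NFAT route is known from signalling through CD14 and Dectin-1.

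Levels are read as FPKM, that is, fragments scaled for gene length and by 1 factor per library. This unit is inferred, and the factor appears to be a median-of-ratios size factor rather than total reads. Log2 changes are on the scale of log2(FPKM + 1), nanoparticle minus vehicle, which understates the change of low genes. A gene was called when its limma p, adjusted by Benjamini and Hochberg over 10682 tested genes, was under 0.05. The recovered depth was 17284817 to 18221713 reads per vehicle library and 17792906 to 21979799 per nanoparticle library. Nanoparticle library 1 stood apart: across genes, its correlation with nanoparticle libraries 2 and 3 was 0.942 and 0.928, against 0.990 between those libraries and 0.993 to 0.994 between vehicle libraries. Results that rest on it are therefore also given without it. Of the dendritic cell markers, Itgax was at 442 to 456 FPKM in vehicle and 248 to 398 in nanoparticle libraries, whereas Flt3 stayed at or below 0.0793 FPKM in every library. The macrophage markers Csf1r and C1qb were also present, with vehicle means of 158 and 283 FPKM, and C1qb fell to 94.0 FPKM (log2 change -1.62, limma adjusted p = 0.0039). Of 12 macrophage markers, 4 were called higher (Adgre1, Cd68, Cd14 and Fcgr1) and 4 lower (Mrc1, C1qa, C1qb and C1qc). The share called among all tested genes was 33.2%. Summed macrophage markers ranged from 1291 to 1421 FPKM in vehicle and 1647 to 1955 in nanoparticle libraries. Cd14 carried that rise: without it, a sum chosen after the values were seen, the range was 1232 to 1364 FPKM in vehicle and 1175 to 1310 in nanoparticle libraries, which overlap. Summed dendritic cell markers ranged from 1502 to 1549 FPKM in vehicle and 924 to 1699 in nanoparticle libraries. Of 9 tested, 2 were called higher (Ccr7 and Irf8) and 4 lower (Cd209a, Clec10a, Clec9a and Zbtb46). T cells are rich in NFAT, and their defining genes Cd3d, Cd3e and Cd3g were at or below 0.0999 FPKM. The 8 T cell markers summed to 87.7 to 92.8 FPKM in vehicle and 109 to 192 in nanoparticle libraries, nearly all of it Il7r, the 1 marker tested (log2 change 0.54, limma adjusted p = 0.128, and 0.27 with 0.0037 without nanoparticle library 1). The other 7, Lck and Cd247 included, summed to 0.504 to 0.870 FPKM in vehicle and 1.21 to 2.33 in nanoparticle libraries, without overlap. In bulk RNA, fewer cells of a type and less RNA per cell cannot be told apart, and the part of cell composition in the results was not tested.

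Of the 10 genes, 3 fell with nanoparticles (Nfatc1, Nfatc2 and Nfatc3), none rose and 7 did not pass the threshold. Among all tested genes 33.2% were called in either direction and 16.2% were called lower. The median log2 change was -0.19 over the 10 genes and -0.001 over all tested genes. The groups did not overlap for 5 of the 10 genes, of which 4 were lower and 1 was higher, and 52.1% of all tested genes had groups that did not overlap. The count of 3 in 10 called in either direction is near that of the whole table, and the calls lie in the NFATc genes. When libraries were instead scaled by total reads, 7 of the 10 genes were called lower. Beside this, 3613 of the 10682 tested genes were called lower, and 44.2% were called in either direction.

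**Figure D1:**
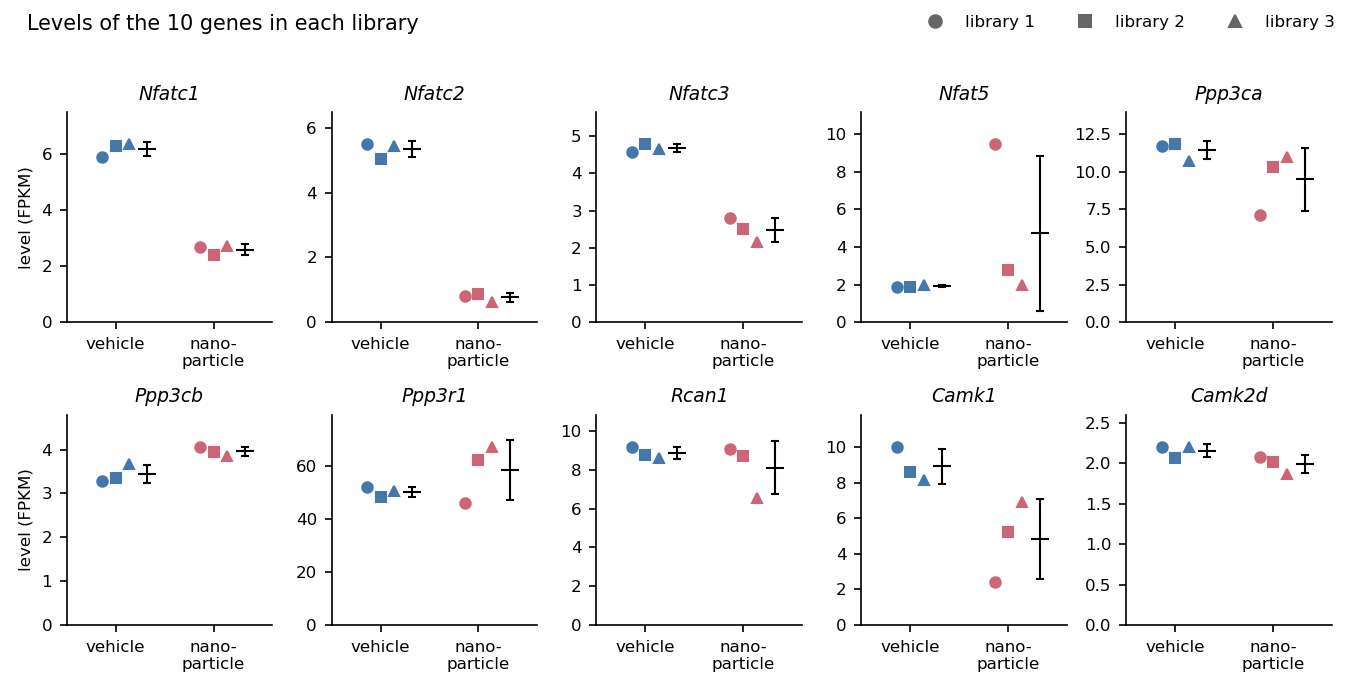
Level in FPKM (vertical axis, starting at 0) of each of the 10 genes in the 3 vehicle and 3 nanoparticle libraries, with symbols for the library number and a bar for the mean and SD. Nfatc1, Nfatc2 and Nfatc3 are lower in all nanoparticle libraries, while Nfat5 is at 9.46 FPKM in nanoparticle library 1 and 2.77 and 1.96 in the other two.

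In vehicle cells the levels per length ran from Ppp3r1 (50.2 FPKM) through Ppp3ca (11.4), Camk1 (8.92), Rcan1 (8.86), Nfatc1 (6.20), Nfatc2 (5.33), Nfatc3 (4.68), Ppp3cb (3.44) and Camk2d (2.15) down to Nfat5 (1.92). Of the neighbours in that order, Camk1 and Rcan1 overlapped between libraries and all other pairs were separated. With nanoparticles Ppp3r1 and Ppp3ca were still highest by mean, and Nfatc2 had moved from the sixth place to the last.

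Nfatc2, which encodes NFAT1, had the largest change of the 10 genes. Its level was 5.49, 5.05 and 5.45 FPKM in the vehicle libraries and 0.811, 0.885 and 0.618 FPKM in the nanoparticle libraries. The groups were far apart, and nanoparticle library 1 lay between the other two. The mean fell from 5.33 ± 0.245 to 0.771 ± 0.138 FPKM (SD, n = 3), a 6.91-fold lower level, with a log2 change of -1.84 (SE 0.102, 95% interval -2.09 to -1.59, limma adjusted p = 1.1e-04). These levels rest on 1059 to 1204 recovered reads per vehicle library and 126 to 155 per nanoparticle library. Because the added 1 FPKM is large beside the treated level, the log2 change was -2.65 with 0.1 FPKM added instead.

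Nfatc2 (ENSMUSG00000027544) lies on the minus strand at chr2:168476410-168601657 (GRCm38), and RefSeq (GRCm38.p6) gives it 2 starts. The 250 bases before each are shown because the gene-level value merges both starts, in the gene's own direction, with the NFAT core GGAAA or its complement TTTCC in capitals. The outer window is chr2:168601658-168601907 and the inner window, which lies inside the gene and in no exon, is chr2:168590366-168590615.
Nfatc2 outer start: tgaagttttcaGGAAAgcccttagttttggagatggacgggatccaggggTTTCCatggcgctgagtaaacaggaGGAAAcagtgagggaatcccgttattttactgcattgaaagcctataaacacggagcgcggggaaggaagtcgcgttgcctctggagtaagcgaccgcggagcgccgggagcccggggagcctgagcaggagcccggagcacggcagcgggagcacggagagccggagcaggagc
Nfatc2 inner start: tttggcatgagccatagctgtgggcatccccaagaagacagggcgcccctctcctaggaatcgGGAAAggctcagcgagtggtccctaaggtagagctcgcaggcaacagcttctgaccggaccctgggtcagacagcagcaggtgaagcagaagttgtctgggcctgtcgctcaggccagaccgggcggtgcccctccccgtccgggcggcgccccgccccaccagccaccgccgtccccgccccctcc
The outer window held 3 cores, 239, 200 and 175 bases upstream of the start, and no GC box (GGGCGG on either strand). The inner window held 1 core, 187 bases upstream, and 4 GC boxes. At least 1 core was found in 55.6% of the 32851 RefSeq windows of this length and at least 1 GC box in 32.7%, so a match describes the letters and marks no bound site.

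Nfatc3, which encodes NFAT4, was at 4.58, 4.79 and 4.67 FPKM in vehicle and 2.81, 2.5 and 2.16 FPKM in nanoparticle libraries. All treated libraries were lower than all vehicle libraries. The mean fell from 4.68 ± 0.106 to 2.49 ± 0.325 FPKM (SD, n = 3), 1.88-fold, with a log2 change of -0.71 (SE 0.104, 95% interval -0.96 to -0.45, limma adjusted p = 0.0033). The gene (ENSMUSG00000031902, chr8:106058840-106130537, plus strand) shares exon bases with Esrp2 on the opposite strand, which was at or below 0.0478 FPKM in every library.

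Nfatc1 encodes NFAT2, the family member known as the master regulator of osteoclast formation. It was at 5.90, 6.32 and 6.37 FPKM in vehicle and 2.69, 2.39 and 2.72 FPKM in nanoparticle libraries, again without overlap. The mean fell from 6.20 ± 0.255 to 2.60 ± 0.182 FPKM (SD, n = 3), 2.38-fold, with a log2 change of -1.0 (SE 0.0920, 95% interval -1.22 to -0.78, limma adjusted p = 5.9e-04). The gene (ENSMUSG00000033016) lies on the minus strand at chr18:80606205-80713071 of GRCm38. Without nanoparticle library 1 the log2 changes of Nfatc1, Nfatc2 and Nfatc3 were -1.02, -1.86 and -0.77, so the falls were as large without the library that stood apart.

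Nfat5, the salt-responsive relative, did not pass the threshold. It was at 1.90, 1.88 and 1.98 FPKM in vehicle and 9.46, 2.77 and 1.96 FPKM in nanoparticle libraries. Library 1 was far above the rest, and library 3 lay within the vehicle range. The log2 change was 0.74 with a wide interval of -0.35 to 1.83 (SE 0.452, limma adjusted p = 0.259), and it was 0.19 (limma adjusted p = 0.194) without nanoparticle library 1. Nfat5 (ENSMUSG00000003847) lies at chr8:107293470-107379517 on the plus strand. The fifth relative, Nfatc4, was at or below 0.122 FPKM in all libraries.

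**Figure D2:**
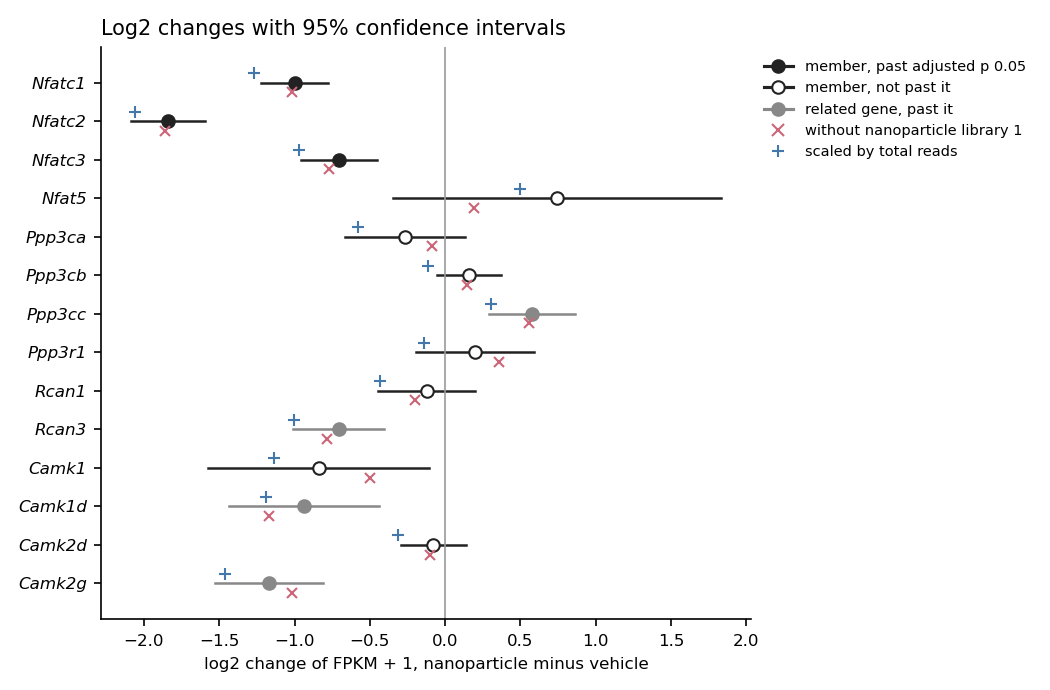
Log2 change of FPKM + 1, nanoparticle minus vehicle (horizontal axis), for the 10 genes and 4 relatives, with 95% intervals. Filled circles passed the limma threshold, crosses leave out nanoparticle library 1 and plus signs scale the libraries by total reads. Nfatc1, Nfatc2 and Nfatc3 lie left of 0 under all 3 settings, while Ppp3cb and Ppp3r1 change side with the scaling.

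In these libraries the make-up of the NFAT pool differed between groups along with its size. Nfatc1, Nfatc2 and Nfatc3 summed to 16.2 ± 0.261 FPKM in vehicle and 5.86 ± 0.417 in nanoparticle libraries (SD, n = 3), a 2.76-fold lower sum. Nfatc2 made up 32.9 ± 1.58% of that sum in vehicle and 13.1 ± 2.05% in nanoparticle libraries. Nfatc3 made up 28.9% and 42.4%, and Nfatc1 38.2% and 44.5%. For each of these 3 shares the groups did not overlap. The exact permutation test (two-sided) gave p = 0.1, adjusted 0.1125 over 9 shares. That is the smallest p that 3 against 3 libraries allow, so no share could pass the threshold. The test therefore cannot decide whether the shares differ beyond these libraries. The 3 shares add up to the whole sum, so the lower share of Nfatc2 raises the others together. They are not 3 separate results. All 5 NFAT genes summed to 18.0, 18.2 and 18.5 FPKM in vehicle and 15.8, 8.57 and 7.45 FPKM in nanoparticle libraries 1, 2 and 3. Nfat5 made up 10.5% of that sum in vehicle and 60.0%, 32.3% and 26.3% in those nanoparticle libraries. Its share was thus higher in each. In nanoparticle library 3, where the level of Nfat5 lay within the vehicle range, the higher share reflects only the lower sum.

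**Figure D3:**
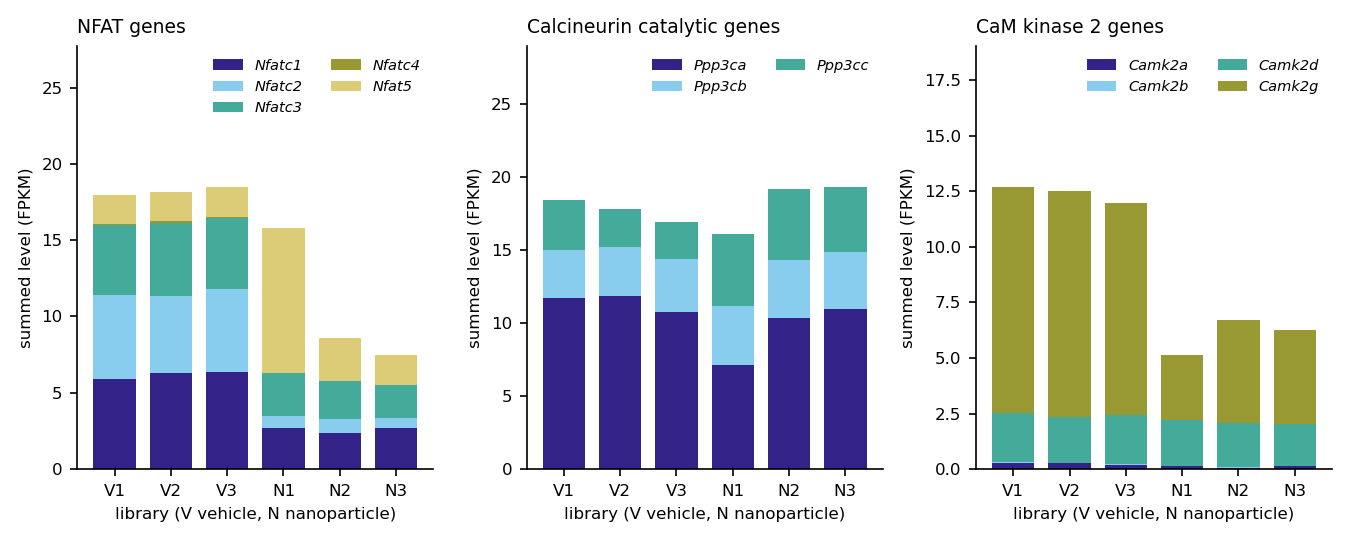
Summed level in FPKM (vertical axis) of the NFAT, calcineurin catalytic and CaM kinase 2 genes in each library, stacked by gene. The NFAT and CaM kinase 2 stacks are lower in the nanoparticle libraries, and the catalytic stack spans 17.0 to 18.4 FPKM in vehicle and 16.1 to 19.3 FPKM in nanoparticle libraries.

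None of the 3 calcineurin subunit genes among the 10 passed the threshold. Ppp3r1, the regulatory B subunit, was at 52.0, 48.1 and 50.6 FPKM in vehicle and 45.8, 62.3 and 67.2 FPKM in nanoparticle libraries. Nanoparticle library 1 lay below the vehicle range and the other two above it. The log2 change was 0.20 (95% interval -0.20 to 0.59, limma adjusted p = 0.40). Without nanoparticle library 1, where 64.8% of all tested genes were called, it was 0.36 and passed (limma adjusted p = 0.0023). Scaled by total reads, a change of scale that moved the median of all tested genes by -0.28, it was -0.14. Ppp3r1 (ENSMUSG00000033953, chr11:17159263-17200375, plus strand) shares exon bases with Wdr92 on the same strand, which was at 2.43 to 4.64 FPKM.

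Ppp3ca, the alpha catalytic subunit, was at 11.7, 11.8 and 10.7 FPKM in vehicle and 7.13, 10.3 and 11 FPKM in nanoparticle libraries. Nanoparticle library 1 was the low one, and the groups overlapped. Its log2 change was -0.26 (95% interval -0.66 to 0.13, limma adjusted p = 0.271), -0.09 without nanoparticle library 1, and -0.58 when scaled by total reads (limma adjusted p = 0.0232). The gene (ENSMUSG00000028161) lies at chr3:136670124-136937727 on the plus strand.

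Ppp3cb, the beta catalytic subunit, was at 3.29, 3.36 and 3.68 FPKM in vehicle and 4.06, 3.95 and 3.86 FPKM in nanoparticle libraries. All treated libraries were above all vehicle libraries by a small margin. On the log2 scale the change was 0.16 (95% interval -0.06 to 0.37, limma adjusted p = 0.222), and it turned to -0.11 when scaled by total reads. The gene (ENSMUSG00000021816) lies at chr14:20499364-20546573 on the minus strand. Its relative Ppp3cc, the gamma catalytic subunit, rose from 2.87 ± 0.486 to 4.76 ± 0.235 FPKM (SD, n = 3; log2 change 0.58, limma adjusted p = 0.0116), a call that was lost when scaled by total reads (0.31, limma adjusted p = 0.0797) and without vehicle library 2 or 3. The 3 catalytic genes summed to 17.7 ± 0.743 FPKM in vehicle and 18.2 ± 1.83 in nanoparticle libraries. Ppp3ca made up 64.4% of that sum in vehicle and 51.7% in nanoparticle libraries, and Ppp3cc 16.1% and 26.4%, each without overlap. The exact permutation test gave its smallest possible p for both (p = 0.1, adjusted 0.1125). It could not pass the threshold, so it cannot decide whether these shares differ beyond these libraries.

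Rcan1, an inhibitor of calcineurin that is itself a classic NFAT target, was at 9.19, 8.80 and 8.60 FPKM in vehicle and 9.07, 8.74 and 6.56 FPKM in nanoparticle libraries. Nanoparticle libraries 1 and 2 lay within the vehicle range and library 3 below it. The log2 change was -0.12 (95% interval -0.45 to 0.20, limma adjusted p = 0.526), it was 0.0062 without nanoparticle library 3, and -0.43 when scaled by total reads (limma adjusted p = 0.0479). Its relative Rcan3 fell from 8.17 ± 0.576 to 4.64 ± 0.702 FPKM (SD, n = 3; log2 change -0.71, limma adjusted p = 0.0065).

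Rcan1 (ENSMUSG00000022951, chr16:92391953-92470867, minus strand) is known for an outer start and an inner start, of which the inner one drives the NFAT-responsive short form. The 250 bases before 1 RefSeq start of each kind are shown, since the gene-level FPKM cannot separate them. The inner window is chr16:92400079-92400328 and the outer window chr16:92466170-92466419 (GRCm38.p6), with NFAT cores in capitals as above.
Rcan1 inner start: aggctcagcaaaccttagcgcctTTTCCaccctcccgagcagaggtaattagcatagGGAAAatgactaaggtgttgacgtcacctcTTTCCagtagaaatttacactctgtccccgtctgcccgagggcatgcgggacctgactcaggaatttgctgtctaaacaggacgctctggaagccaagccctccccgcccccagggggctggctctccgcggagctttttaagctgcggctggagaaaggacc
Rcan1 outer start: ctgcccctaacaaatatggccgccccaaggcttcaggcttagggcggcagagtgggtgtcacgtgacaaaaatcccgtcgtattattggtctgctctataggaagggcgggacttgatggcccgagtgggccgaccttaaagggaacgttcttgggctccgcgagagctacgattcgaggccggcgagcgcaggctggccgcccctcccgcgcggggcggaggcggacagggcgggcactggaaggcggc
The inner window held 3 cores, 227, 193 and 163 bases upstream of the start, with 1 GC box, 1 AP-1 site (TGANTCA, in 6.75% of all windows) and 1 cAMP response element (TGACGTCA, in 1.55%). The outer window held no core and 6 GC boxes. Motifs were searched on both strands, and no matches of different motifs overlapped in the 4 windows shown. RefSeq windows were matched for 8 of the 10 genes, 11 windows in all, of which 7 held a core.

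Camk1, the CaM kinase I that CaM kinase kinase activates, was at 10.0, 8.61 and 8.13 FPKM in vehicle and 2.43, 5.22 and 6.89 FPKM in nanoparticle libraries. The groups did not overlap, and nanoparticle library 1 was lowest. The log2 change was -0.84 (SE 0.303, 95% interval -1.57 to -0.11) with a limma adjusted p of 0.0778, so it was not called. Without nanoparticle library 1 the change was smaller, -0.50, and passed (limma adjusted p = 0.0136). It also passed without nanoparticle library 3 (-1.10, limma adjusted p = 0.0326) and when scaled by total reads (-1.14, limma adjusted p = 0.0190). Among all tested genes, 64.8% were called without nanoparticle library 1 and 44.2% when scaled by total reads. Camk1 (ENSMUSG00000030272, chr6:113334124-113343984, minus strand) shares exon bases with Ogg1 on the opposite strand, which was at 2.66 to 3.53 FPKM, and whether the counting used strand is not given in the sources used here.

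Camk2d, the delta CaM kinase II, was at 2.20, 2.06 and 2.20 FPKM in vehicle and 2.08, 2.02 and 1.86 FPKM in nanoparticle libraries. The groups overlapped, and the change of -0.08 on the log2 scale (95% interval -0.29 to 0.14, limma adjusted p = 0.542) became -0.31 when scaled by total reads (limma adjusted p = 0.0346). The gene (ENSMUSG00000053819) lies at chr3:126596302-126846326 on the plus strand. Its relative Camk2g, the highest CaM kinase II gene by FPKM, fell from 9.98 ± 0.342 to 3.93 ± 0.873 FPKM (SD, n = 3; log2 change -1.17, limma adjusted p = 0.0019). Thus the 4 CaM kinase II genes summed to 12.4 FPKM in vehicle and 6.04 in nanoparticle libraries. The share of Camk2d was 17.4% and 33.4% without overlap (exact permutation p = 0.1, the smallest possible, adjusted 0.1125). Here too the test could not pass the threshold and cannot decide whether the share differs beyond these libraries. The share of Camk2d depends on the gene lengths used, 22493 bases for Camk2d and 6401 for Camk2g. Recovered reads per vehicle library were 918 to 1034 for Camk2d and 1281 to 1300 for Camk2g. Per nanoparticle library they were 751 to 808 for Camk2d and 308 to 524 for Camk2g. Camk2a stayed at or below 0.289 FPKM, and Camk2b and Camk4 at or below 0.0387 and 0.0248 FPKM.

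The wider pathway was described by 9 lists, whose counts stand beside the 33.2% of all tested genes called. Of 7 tested calmodulin and calcineurin genes, 1 rose (Ppp3cc) and none fell, with a median log2 change of 0.20. Without nanoparticle library 1, where 64.8% of all tested genes were called, 5 of the 7 rose. Of 8 tested regulators and anchors, Rcan3 alone was called. Of the 4 tested NFAT factors 3 fell, with a median of -0.85. Among them, Nfatc2 passed the filter of 1 FPKM through the vehicle libraries.

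Among 13 tested NFAT kinases, anchors and partners, 1 rose and 3 fell (median -0.18). Dyrk2, a kinase that phosphorylates NFAT, rose from 6.76 to 14.5 FPKM (log2 change 0.98, limma adjusted p = 0.0038). Fos, a subunit of the NFAT partner AP-1, fell from 15.8 to 7.70 FPKM (log2 change -0.94, limma adjusted p = 0.0019). Csnk1e and Mapk14, a casein kinase and the p38 alpha kinase, fell by 0.44 and 0.50 on the log2 scale, and both calls were lost without any 1 of the vehicle libraries. Mapk14 was also not called without nanoparticle library 3 or with no filter on low genes (limma adjusted p = 0.0598).

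Of 9 tested CaM kinases and related genes 4 fell and none rose (median -0.67): Camk2g, Camk1d, Dapk1 and Eef2k. Camk1d, a second CaM kinase I, fell from 4.51 to 1.95 FPKM (log2 change -0.94, limma adjusted p = 0.0148), a call lost without vehicle library 1 or 3 or nanoparticle library 2. The calmodulin-regulated death kinase Dapk1 fell from 13.3 to 7.50 FPKM and the elongation factor kinase Eef2k from 1.14 to 0.352 FPKM, with log2 changes of -0.76 and -0.67. Eef2k passed the filter of 1 FPKM through the vehicle libraries, so the count of CaM kinases and related genes that fell depends on that filter. Of 9 tested nuclear substrates 4 fell and 1 rose (median -0.23). Hdac5, a class IIa histone deacetylase, fell from 7.32 to 2.82 FPKM (log2 change -1.13, limma adjusted p = 9.3e-04), and the transcription factor Mef2a from 8.19 to 5.04 FPKM (-0.60). The CREB coactivator Crtc2 rose from 7.62 to 13.3 FPKM (0.72), but not past the threshold when scaled by total reads (0.41, limma adjusted p = 0.0571). Hdac4 fell from 2.21 to 1.14 FPKM (-0.60), a call lost without any 1 vehicle library and without nanoparticle library 2 or 3, and with no filter on low genes (limma adjusted p = 0.0793).

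**Figure D4:**
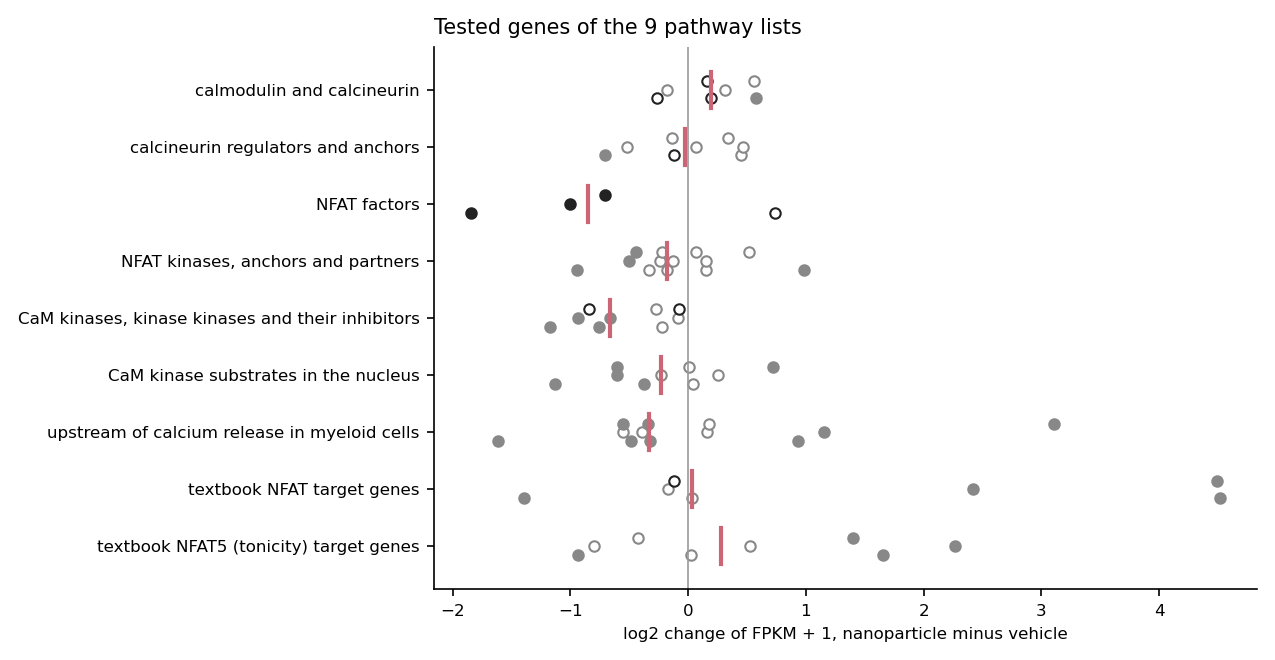
Log2 change of FPKM + 1, nanoparticle minus vehicle (horizontal axis), of every tested gene in the 9 pathway lists; filled points passed the limma threshold, black marks the 10 genes and vertical bars are list medians. The NFAT factors have the lowest median, -0.85, and Tnf and Ptges lie farthest right, at 4.49 and 4.51.

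Upstream of calcium release, 3 of 12 genes rose and 5 fell (median -0.33). Cd14, the lipopolysaccharide co-receptor and also one of the macrophage markers above, rose from 60.0 to 531 FPKM (log2 change 3.11, limma adjusted p = 9.2e-05). The receptor chain Fcer1g rose from 469 to 897 FPKM and the kinase Syk from 37.3 to 86.0 FPKM, with log2 changes of 0.93 and 1.15. Plcb2, a phospholipase C that releases inositol trisphosphate, fell from 29.6 to 9.09 FPKM (-1.61, limma adjusted p = 3.9e-04). These are the 4 with the smallest adjusted p, and the other genes called in this list, Plcg2, Itpr1, Plcg1 and Btk, all fell.

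Textbook NFAT targets did not move one way: 3 of 7 tested rose and 1 fell (median 0.03). Tnf, the tumour necrosis factor gene, rose from 47.6 to 1100.5 FPKM (log2 change 4.49, limma adjusted p = 2.4e-05) and Ptges, a prostaglandin E synthase, from 0.96 to 51.4 FPKM (4.51, limma adjusted p = 8.3e-04). The Ptges mean rests on nanoparticle library 1, at 95.1 FPKM against 32.6 and 26.5, and was 29.5 FPKM without it (3.96, limma adjusted p = 2.0e-06). Il10 was listed at 0 in all vehicle libraries and at 13.9, 3.83 and 1.11 FPKM in nanoparticle libraries, a call lost without any 1 vehicle library or nanoparticle library 2, with no filter on low genes (limma adjusted p = 0.0792) and with limma-voom on recovered reads (limma adjusted p = 0.061). Egr3, an early response transcription factor, fell from 2.15 to 0.189 FPKM (-1.39, limma adjusted p = 0.0022). Il10 and Ptges passed the filter of 1 FPKM through the nanoparticle libraries, and Egr3 through the vehicle libraries. Il2 and Il4 were too low to be tested, so the counts and the median depend on that filter. The listed targets also answer to other pathways, and Rcan1, described above, is in the same list.

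Among 8 tested NFAT5 targets, 3 rose and 1 fell (median 0.28). The betaine transporter Slc6a12 was at 5.90, 6.33 and 6.45 FPKM in vehicle and 34.0, 34.7 and 32.9 FPKM in nanoparticle libraries (log2 change 2.27, limma adjusted p = 3.9e-05). Its 3 treated values were close together, whereas those of Nfat5 ranged from 1.96 to 9.46 FPKM. Whether the levels of Slc6a12 and Nfat5 are linked was not tested. The kinase Sgk1 rose from 38.0 to 102 FPKM (1.40), and the heat shock gene Hspa1b from 0.560 to 3.92 FPKM (1.65), a value that is uncertain because Hspa1a is a near-identical copy. Hspa1b passed the filter of 1 FPKM through the nanoparticle libraries, so the count of 3 depends on that filter. The taurine transporter Slc6a6 fell from 64.8 to 33.7 FPKM (-0.94, limma adjusted p = 0.0038).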

How the data were processed

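RNA sequencing was analysed in 3 vehicle and 3 nanoparticle libraries, grouped by treatment label. An input of 1 µg of total RNA went into each NEBNext Ultra II library, per the labels' protocols. The submitters' processing notes name CASAVA, STAR 2.5, HTSeq, edgeR 3.16.5, DESeq2 2 and the builds hg19 and mm10, with no role or order. The authors deposited 2 tables whose 140388 values are identical. No header names the unit. The values behave as FPKM, and the deposited numbers are read as such here. With GENCODE M21 gene lengths and 1 scale per library, 95.8% to 96.1% of values came out as whole reads within 0.01, and another length was found for 599 genes. The scales followed median-of-ratios size factors, so the deposited FPKM appear, by deduction, to carry a scaling which assumes that most genes do not change.

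Genes reaching 1 FPKM in 3 or more libraries were tested, and log2(FPKM + 1) was fitted on group with limma 3.58.1 (eBayes with trend) in R 4.3.3, after the script was tested on simulated data. A gene could pass the filter of 1 FPKM through 1 group. Nfatc2, Egr3 and Eef2k, for example, did so through vehicle libraries, and Il10, Ptges and Hspa1b through nanoparticle libraries. For shares, an exact permutation test was run in scipy 1.17.1. Confidence intervals are 95%. Same-numbered libraries were not treated as pairs, since no label links them. The 10 genes and all lists were chosen with earlier results of these data known. Named were the 10 genes, their relatives, and per list every called gene beyond them if at most 4, otherwise the 4 with the smallest adjusted p. The other called genes upstream of calcium release were named after their values were seen. Marker genes were named to check the labelled cell type. Values of some listed genes are not reported here. Alternatives were other filters, added constants, scalings, limma-voom on recovered reads, a replicate block and leaving out each library. Promoter windows are RefSeq's on GRCm38.p6, and gene positions are GENCODE M21's on GRCm38.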

Additional observations from a re-analysis of the deposited data

How the results depend on the processing

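Nfatc1, Nfatc2 and Nfatc3 kept direction and call under every alternative that tested them; the filter at a mean of 5 FPKM left 4 of the 10 genes, none of them called (0 lower), and 0 NFAT factors lower. Labels do not link same-numbered libraries. Deviations of same-numbered libraries from their group means correlated at 0.065, 0.113 and -0.058, and those of different-numbered libraries at -0.129 to 0.108. With 3 libraries per group such values cannot show whether libraries were paired. With a replicate block the adjusted p of Nfatc1, Nfatc2 and Nfatc3 was 0.0067, 0.0021 and 0.0188, 1 NFAT kinase or partner fell in place of 3 and 2 upstream genes in place of 5; Csnk1e and Mapk14 lost their calls.

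Scaling by total reads, which by its construction shifts all genes, gave 1108 genes higher and 3613 lower (44.2% called, against 1817 and 1733) and 7 of the 10 genes lower. It moved Ppp3ca to -0.58, Rcan1 to -0.43, Camk1 to -1.14 and Camk2d to -0.31, all now past the threshold, and reversed Ppp3cb (-0.11) and Ppp3r1 (-0.14). List medians became -0.11 (calmodulin and calcineurin, reversed, 0 higher and 1 lower), -0.35 (regulators, 4 lower), -1.12 (NFAT factors), -0.51 (NFAT kinases, 6 lower), -0.80 (CaM kinases, 8 lower), -0.54 (substrates, 0 higher), -0.59 (upstream), -0.30 (NFAT targets, reversed, 3 lower) and -0.024 (NFAT5 targets, reversed, 2 lower).

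The filter at a mean of 5 FPKM tested fewer genes and gave 2198 calls, 790 lower. It left 0 calmodulin and calcineurin genes higher, 2 CaM kinases, 2 substrates and 0 NFAT targets lower, and medians of 0.070 (regulators, reversed), -0.80 (CaM kinases), -0.073 (upstream) and 0.025 (NFAT5 targets). With no filter, medians were -0.12 (CaM kinases), -0.71 (NFAT factors) and 0.0082 (NFAT5 targets), and 3 upstream genes fell. With 0.1 FPKM added, medians were -1.06 (NFAT factors) and -0.83 (CaM kinases), and with limma-voom -1.10 and -0.85.

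Leaving out each library in turn gave 2141 to 6923 calls, 1114 to 3660 higher and 1027 to 3263 lower, with the highest counts without nanoparticle library 1; the cause was not tested. Of the 10 genes 0 to 1 were higher. Ppp3r1 ranged from 0.088 to 0.36, Rcan1 from -0.20 to 0.0062 (reversed without nanoparticle library 3) and Camk1 from -1.10 to -0.50. Lists ranged from 0 to 5 higher (calmodulin and calcineurin), 0 to 1 higher and 1 to 2 lower (regulators, median -0.088 to 0.056, reversed without nanoparticle library 3), 1 to 4 higher and 1 to 6 lower (NFAT kinases), 2 to 5 lower (substrates), 2 to 7 lower (upstream) and 1 to 2 lower (NFAT5 targets), and the CaM kinase median from -0.73 to -0.50. Without molecular identifiers, reads can be copies of 1 molecule, so depth covers counting error only.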

Other observations

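Of 6 tested osteoclast markers, several of which are known NFATc1 targets, 2 rose and none fell, beside 33.2% of all tested genes called. Without nanoparticle library 1, 4 rose and 2 fell, beside 64.8%. Ctsk, the cathepsin K gene, was at 23.8, 25.6 and 25.7 FPKM in vehicle and 60.8, 70.7 and 71.9 FPKM in nanoparticle libraries (log2 change 1.40, limma adjusted p = 3.5e-04). Acp5, the tartrate-resistant acid phosphatase gene, rose from 29.9 to 97.7 FPKM (1.65, limma adjusted p = 0.0017). The fusion gene Dcstamp was at 161 and 169 FPKM (0.03, limma adjusted p = 0.917), and passed without nanoparticle library 1 (0.26, limma adjusted p = 0.0112). Ocstamp was at 54.4, 53.3 and 52.6 FPKM in vehicle and 4.57, 30.4 and 28.9 FPKM in nanoparticle libraries (-1.65, limma adjusted p = 0.103), and without nanoparticle library 1 it passed at -0.83 (limma adjusted p = 3.2e-05). Mmp9 and Tnfrsf11a also passed without that library, at 1.83 and -0.36, with limma adjusted p of 6.0e-06 and 0.0098. Of the other osteoclast markers, Calcr and Oscar stayed at or below 0.157 and 0.109 FPKM. Ctsk and Acp5 are also expressed by macrophages and dendritic cells.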
